A study of Rattus norvegicus with 250 samples.

Results

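The transcripts of 8 genes that mark GABA interneurons or encode their neuropeptides were examined in hippocampal polyA RNA-Seq from an F2 intercross of rats. The members were listed by name and by Ensembl identifier, and they are 8 of the 32883 genes in the deposited count table: *Gad1* (ENSRNOG00000000007), *Gad2* (ENSRNOG00000018200), *Slc32a1* (ENSRNOG00000015393), *Pvalb* (ENSRNOG00000006471), *Sst* (ENSRNOG00000001837), *Npy* (ENSRNOG00000046449), *Vip* (ENSRNOG00000018808) and *Cck* (ENSRNOG00000019321). The count table carries identifiers only, and of these pairings only that of *Vip* could be checked against a table of the study; the other 7 rest on the list that named the members. The rats descended from lines bred for high (bred High Responder, bHR) or low (bred Low Responder, bLR) exploration of an unfamiliar environment, which were crossed into 12 intercross families. No group of the design was defined by a drug or an engineered allele. Each library came from punches of dorsal and ventral hippocampus of 1 adult, pooled over slabs and cut by 1 of 2 dissectors, here called dissector One, as labeled, and the second dissector. Of 250 libraries, 245 had no failed quality label (122 males aged 113 to 123 days and 123 females aged 124 to 132 days at death), and they held 17.92 to 31.49 M counts with a median of 21.61 M. All rats had been scored for locomotion in an unfamiliar environment (LocoScore) and on the elevated plus maze (EPM), and 208 had also been through Pavlovian conditioned approach (PavCA) training, of which 205 had a PavCA Index, a score that is higher for approach to the lever cue (sign tracking) and lower for approach to the food magazine (goal tracking). The transporter gene *Slc17a7*, abundant in excitatory neurons of the hippocampus, was read in every library, at 547 to 2477 CPM (reads of a gene scaled to the size of its library). In bulk tissue fewer interneurons and less transcript per interneuron cannot be told apart.

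GABA is the main inhibitory transmitter of the hippocampus. It is made from glutamate by the 2 decarboxylases that *Gad1* and *Gad2* encode, and it is loaded into synaptic vesicles by the transporter that *Slc32a1* encodes. Interneurons are then divided by what else they express. Parvalbumin (*Pvalb*), a calcium buffer, marks fast-spiking cells that inhibit the soma and axon of pyramidal cells, somatostatin (*Sst*) marks cells that inhibit distal dendrites, and vasoactive intestinal peptide (*Vip*) marks cells that largely inhibit other interneurons. Cholecystokinin (*Cck*) marks a further class of basket cells and is also expressed by pyramidal cells, so that its level is not a measure of interneurons alone. Neuropeptide Y (*Npy*) is shared by several interneuron classes.

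*Sst* and *Vip* are textbook targets of the cAMP response, and the sequence around the element is shown for both. Whether the element bears on the correlation of their levels between rats was not tested. RefSeq's promoter windows (assembly GRCr8, 250 bases before to 50 bases after each gene's start) held 7 of the 8 members. *Cck* was not among them and so was not searched. The windows were searched on both strands for TGACGTCA and for TGACGTCT. In the 30 bases shown, 5′ to 3′ on the + strand, capitals mark the element, whose first base lay at position 3 relative to the RefSeq start of *Sst* (chr11:90461537-90461566) and at position -97 for *Vip* (chr1:44470372-44470401).
Sst: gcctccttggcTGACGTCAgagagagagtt
Vip: gatcaccactgTGACGTCTttcgaggagcc
Among the 7 members searched, only *Sst* held TGACGTCA and only *Vip* held TGACGTCT. Of all 33469 promoter windows, 612 (1.83%) held TGACGTCA and 204 (0.61%) held TGACGTCT. A match of letters describes these windows only and shows neither binding nor regulation.

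In every library 7 members were read, and *Npy* was not. The 7 carried between 182 and 11716 reads per rat, whereas the row taken as *Npy* held 2 reads in 245 libraries, 1 in each of 2 rats, and failed the filter on low counts (at least 1 read in 25% of rats). No level or test is given for it, and nothing is drawn from it about neuropeptide Y. Gene lengths were not part of the files, so the CPM of a member were compared between rats and not with those of another gene.

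*Gad1* and *Slc32a1* varied less between rats than the other 5 genes did. *Gad1* ranged from 137 CPM through a median of 242 to 337, and its SD over 245 rats was 0.24 on the log2 scale. *Gad2* ranged from 68.1 through 193 to 370 CPM (SD 0.54 log2), and *Slc32a1* from 39.2 through 76.9 to 117 (SD 0.34 log2). The marker genes followed. *Pvalb* ranged from 31.9 CPM through a median of 68.4 to 236 (SD 0.67 log2), and *Sst* from 61.1 through 136 to 276 (SD 0.47 log2). *Vip* had the widest spread of the 7, from 7.73 through 31.5 to 126 CPM (SD 0.90 log2), and *Cck* ranged from 116 through 262 to 600.2 (SD 0.49 log2).

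In all, 3 rats stood apart, and several results, though not all, are given with and without them. With the model's covariates removed, *Slc32a1* lay over 3 SD above the mean in male rat 106 and in female rats 100 and 105, which were picked out after their values were seen. Their unadjusted *Slc32a1* levels were 108, 109 and 78.7 CPM, and their *Gad1* levels 324, 318 and 233 CPM. All of them were cut by the second dissector and sequenced in batch 3, their families were 1, 4 and 10, and the intergenic percentage of their libraries was low (11.5, 11.4 and 10.1%).

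The members fell into 2 blocks that moved in opposite directions with the composition of the library. The intergenic percentage, taken here as what remains of 100% after the mRNA, intronic and ribosomal percentages, ran from 9.91 to 17.3% over the 245 libraries. With it rose *Gad1* (Pearson's r = 0.76, Spearman's rho = 0.79), *Gad2* (r = 0.92, rho = 0.93) and *Slc32a1* (r = 0.83, rho = 0.86). With it fell *Pvalb* (r = -0.87, rho = -0.88), *Sst* (r = -0.80, rho = -0.83), *Vip* (r = -0.88, rho = -0.89) and *Cck* (r = -0.80, rho = -0.83). Each of these 14 coefficients had a permutation p of 1e-05, adjusted p of 1e-05 over the 7 members, which is the smallest that 100000 resamples can give. Without the 2 rats farthest from the median percentage, r was 0.76, 0.92 and 0.83 for the rising genes and -0.88, -0.81, -0.88 and -0.81 for the falling ones. Within dissector One (n = 80) r was 0.56, 0.82 and 0.80 for *Gad1*, *Gad2* and *Slc32a1* and -0.77, -0.60, -0.66 and -0.56 for *Pvalb*, *Sst*, *Vip* and *Cck*. Within the second dissector (n = 165) and within each of the 3 sequencing batches the signs were the same, with absolute r between 0.64 and 0.95.

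**Figure D1:**
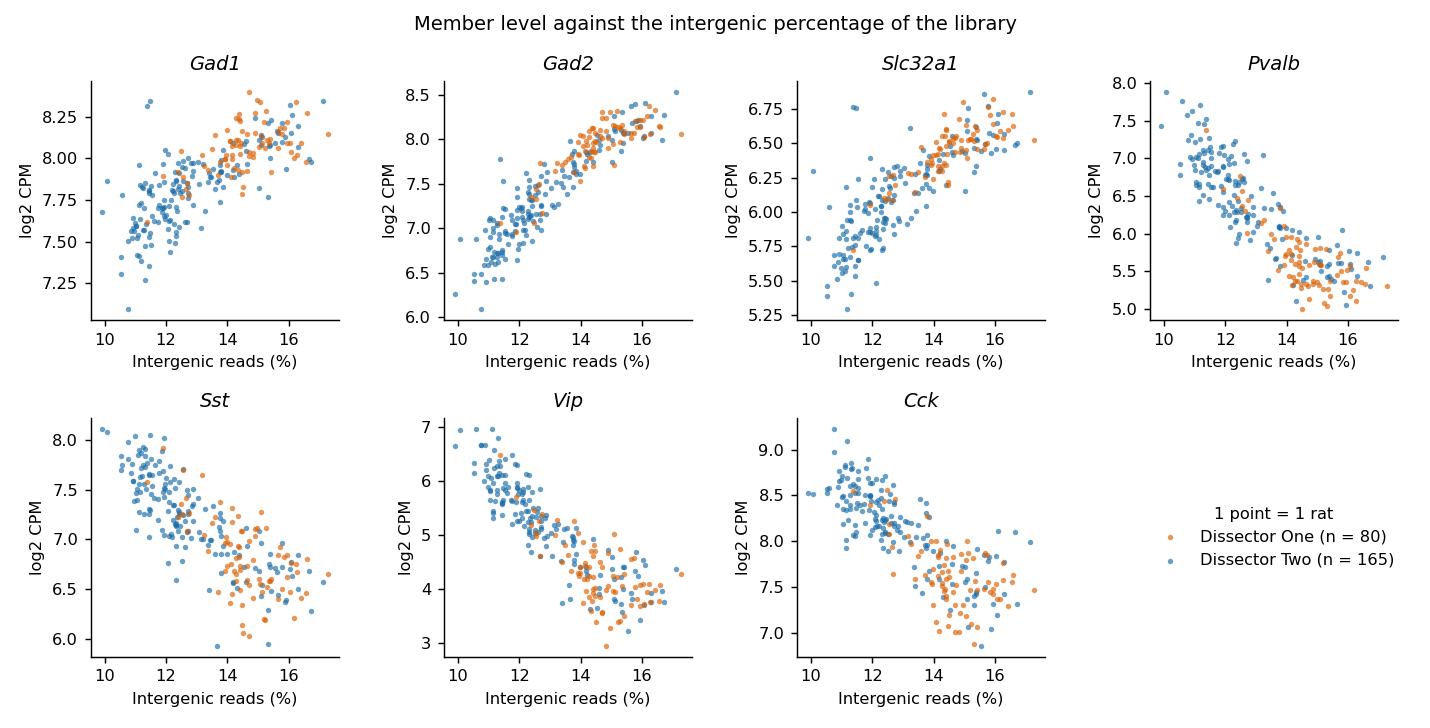
Level of each of 7 members (log2 CPM, y axis) against the intergenic percentage of the library (x axis); 1 point is 1 rat, colored by dissector (dissector One, n = 80 rats, and the second dissector, n = 165 rats). *Gad1*, *Gad2* and *Slc32a1* climbed with the percentage (r from 0.76 to 0.92), *Pvalb*, *Sst*, *Vip* and *Cck* fell with it (r from -0.80 to -0.88), and the rats of dissector One lie mostly at the higher percentages.

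The same division held in the model that also contained LocoScore, sex, ribosomal percentage, dissector, PavCA experience and sequencing batch (limma-voom, adjusted over 19448 genes). Per percentage point, the log2 level of *Gad2* rose by 0.23 ± 0.012 (SE), that of *Slc32a1* by 0.14 ± 0.011 and that of *Gad1* by 0.081 ± 0.0095. The level of *Vip* fell by 0.25 ± 0.019, of *Pvalb* by 0.17 ± 0.013, of *Sst* by 0.15 ± 0.017 and of *Cck* by 0.11 ± 0.015. All 7 passed FDR 0.10, with adjusted p from 6.0e-51 (*Gad2*) to 2.7e-11 (*Cck*). The background is high, since 77.3% of all genes tested passed in this comparison (38.9% rising and 38.4% falling), and 3 members rising and 4 falling stand close to it. Slopes of other genes from the lists were of both signs too: *Grin2d*, an NMDA receptor subunit of interneurons, rose by 0.30 ± 0.020 and *Kcnc1*, a potassium channel of fast-spiking cells, by 0.19 ± 0.012. *Nr2f1*, a transcription factor of some interneurons, rose by 0.099 ± 0.0072. In contrast, the level of *Crhbp*, which encodes a binding protein of corticotropin-releasing hormone, fell by 0.097 ± 0.018 and that of *Gabra5*, a GABA-A receptor subunit, fell by 0.051 ± 0.011. In all, 5 of the 8 other interneuron markers that could be matched to an identifier rose and 3 fell. *Slc17a7*, the vesicular glutamate transporter of hippocampal excitatory neurons, also rose (0.18 ± 0.010). Together the covariates accounted for 62.9% (*Gad1*) to 91.4% (*Pvalb*) of the variance between rats.

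Covariation between members was therefore measured before and after the covariates were removed. With none removed, all 21 pairs passed an adjusted permutation p of 0.05 (n = 245 rats). The 9 positive pairs were those within *Gad1*, *Gad2* and *Slc32a1* and within *Pvalb*, *Sst*, *Vip* and *Cck*, and the 12 negative pairs were those between these blocks. The closest pairs were *Pvalb* with *Vip* (r = 0.95), *Gad2* with *Slc32a1* (r = 0.92) and *Vip* with *Cck* (r = 0.91). The most opposed pair was *Gad2* with *Vip* (r = -0.87).

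With sex, ribosomal and intergenic percentage, dissector, PavCA experience and batch removed, 18 of 21 pairs still passed, 13 of them positive and 5 negative. The share of all gene pairs that would pass was not computed, either before or after removal, so these counts have no background. Within the synthesis and vesicle genes, *Gad1* with *Slc32a1* gave r = 0.67 (rho = 0.62), *Gad2* with *Slc32a1* gave r = 0.67 (rho = 0.63), and *Gad1* with *Gad2* gave r = 0.43 (rho = 0.35). Each had an adjusted permutation p of 2.33e-05. These 3 pairs were positive in all 7 strata examined (both sexes, both dissectors and the 3 batches). Without the 3 rats that stood apart, r was 0.59, 0.61 and 0.33 for the same pairs.

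Among the markers, *Vip* with *Cck* was the closest pair (r = 0.56, rho = 0.55), followed by *Pvalb* with *Vip* (r = 0.50, rho = 0.48) and *Sst* with *Vip* (r = 0.45, rho = 0.46). Each of these had an adjusted permutation p of 2.33e-05, as had *Pvalb* with *Sst* (r = 0.34, rho = 0.34) and *Sst* with *Cck* (r = 0.34, rho = 0.36). *Pvalb* with *Cck* was weaker (r = 0.29, rho = 0.28, adjusted permutation p = 5.73e-05). All 6 pairs of markers thus had the sign that they had with no covariate removed.

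The signs that did not keep were those between the blocks. *Gad1* with *Sst* turned from r = -0.55 to r = 0.29 (adjusted permutation p = 5.73e-05), *Gad1* with *Pvalb* from -0.67 to 0.26 (adjusted permutation p = 0.000122), and *Slc32a1* with *Pvalb* from -0.73 to 0.21 (adjusted permutation p = 0.00162). *Gad1* with *Vip* turned from -0.68 to 0.14 (adjusted permutation p = 0.0335). *Gad2* was instead negative with 3 markers. It stayed opposed to *Cck* (r = -0.32, adjusted permutation p = 2.33e-05), to *Sst* (r = -0.22, adjusted permutation p = 0.000695) and to *Vip* (r = -0.21, adjusted permutation p = 0.00132). *Slc32a1* was also negative with *Vip* (r = -0.16, adjusted permutation p = 0.014) and with *Cck* (r = -0.14, adjusted permutation p = 0.0335), the latter not by rank (rho = -0.07, adjusted permutation p = 0.28) nor without the 3 rats that stood apart (r = -0.04). With DESeq2 size factors neither passed (r = -0.11 and -0.08, adjusted permutation p = 0.105 and 0.207). Of the 7 strata, *Gad1* passed with *Sst* in 6, with *Pvalb* in 5 and with *Vip* in 2. *Gad2* passed with *Cck* in 6, with *Vip* in 3 and with *Sst* in 1. *Slc32a1* passed with *Pvalb* in 5, with *Cck* in 2 and with *Vip* in 1. The 3 pairs that did not pass were *Gad1* with *Cck* (r = -0.05), *Gad2* with *Pvalb* (r = -0.05) and *Slc32a1* with *Sst* (r = 0.04). Rats of a family are related, and all p-values given here treat rats as independent. With family and dissection day removed as well, 17 pairs passed (12 positive and 5 negative). *Gad1* with *Vip* then no longer passed (r = 0.087, adjusted permutation p = 0.207), and *Gad1* with *Sst* fell to r = 0.13 (adjusted permutation p = 0.0436) and did not pass by rank (rho = 0.10, adjusted permutation p = 0.132).

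**Figure D2:**
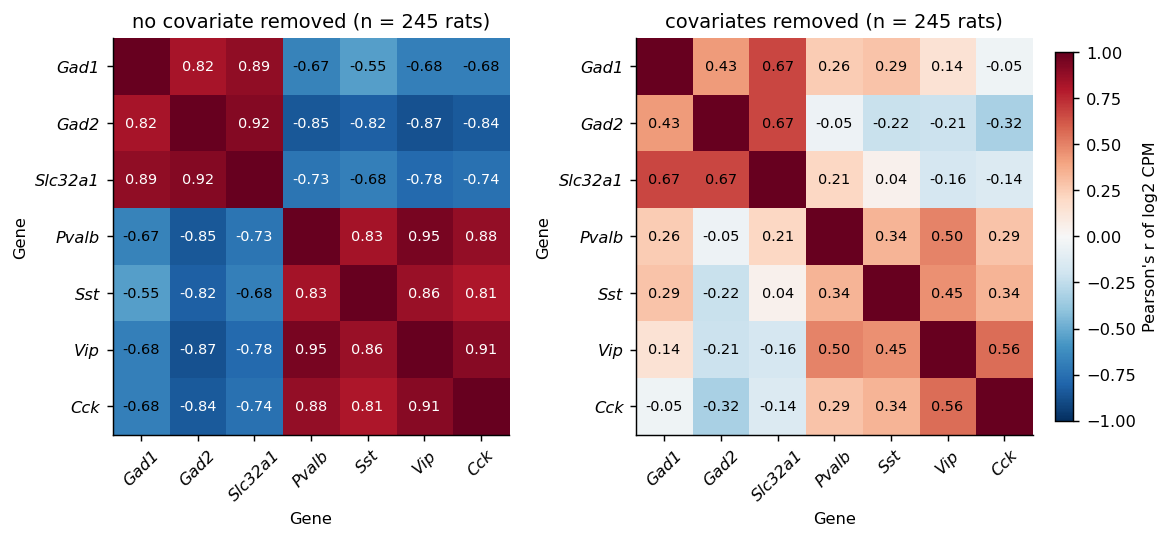
Pearson's r between the log2 CPM of 7 members over 245 rats, with no covariate removed (left) and with sex, ribosomal and intergenic percentage, dissector, PavCA experience and batch removed (right); rows and columns are genes and color runs from -1 (blue) to 1 (red). On the left the blocks *Gad1*, *Gad2*, *Slc32a1* and *Pvalb*, *Sst*, *Vip*, *Cck* oppose each other in all 12 pairs, whereas on the right *Gad1* is positive with *Pvalb* (0.26) and *Sst* (0.29) and *Gad2* is not.

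Among all 13777 other genes with a mean of at least 1 CPM, *Slc32a1* was the gene whose adjusted level was most like that of *Gad1* over the 245 rats (rank 1), and *Gad2* was rank 16. Ranks and nearest genes were not computed without the 3 rats that stood apart, which were picked by their *Slc32a1* level. Seen from *Slc32a1*, *Gad2* and *Gad1* were ranks 2 and 3, behind ENSRNOG00000047656 (r = 0.69). From *Gad2* the picture was different, since *Slc32a1* was only rank 200 and *Gad1* rank 2608, and its nearest genes were ENSRNOG00000006527 (r = 0.80) and ENSRNOG00000010267 (r = 0.75). The nearest genes outside the members for *Gad1* were ENSRNOG00000016640 (r = 0.59) and ENSRNOG00000012995 (r = 0.50). For *Slc32a1*, the next outside gene after ENSRNOG00000047656 was ENSRNOG00000016255 (r = 0.62).

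*Cck* and *Vip* shared a near neighbor. ENSRNOG00000002196 was the second nearest gene of both (r = 0.66 with *Cck* and r = 0.68 with *Vip*), the nearest being ENSRNOG00000021663 for *Cck* (r = 0.66) and ENSRNOG00000042499 for *Vip* (r = 0.70). *Vip* itself was rank 13 for *Cck*, and *Cck* was rank 76 for *Vip*. The other marker pairs stood lower, from rank 311 (*Pvalb* for *Vip*) to rank 2076 (*Cck* for *Pvalb*). Many genes outside the members were thus closer to a marker than the other markers were. For *Pvalb* the nearest genes were ENSRNOG00000001420 (r = 0.71) and ENSRNOG00000017817 (r = 0.67), and for *Sst* they were ENSRNOG00000007334 (r = 0.61) and ENSRNOG00000053362 (r = 0.60). None of these neighbors could be paired with a symbol. These coefficients are over rats of shared libraries and describe likeness of level only.

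The dissector comparison asked how far the members differed between the rats cut by each dissector. *Vip* had medians of 18.9 CPM (range 7.73 to 90.1) in the 80 rats of dissector One and 40.1 CPM (range 9.34 to 126) in the 165 rats of the second dissector. *Pvalb* had medians of 47.8 (31.9 to 167) and 86.0 CPM (33.2 to 236). *Gad2* ran the other way, with medians of 255 (124 to 331) and 151 CPM (68.1 to 370). For all 7 members the groups overlapped: of the 165 rats of the second dissector, 9 lay above every rat of dissector One for *Vip*, 9 for *Pvalb* and 31 for *Cck*, while 42 lay below every such rat for *Gad2*, 35 for *Gad1* and 22 for *Slc32a1*. *Cck* had medians of 192 and 297 CPM, *Sst* of 110 and 152, *Slc32a1* of 88.8 and 67.5, and *Gad1* of 268 and 227.

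On each of the 7 dissection days that both dissectors shared, the mean of the second dissector was above that of dissector One for *Pvalb*, *Sst*, *Vip* and *Cck* and below it for *Gad1*, *Gad2* and *Slc32a1*. The daily log2 differences for *Vip* ran from 0.85 to 1.54 with a median of 1.12, and those for *Gad2* from -0.94 to -0.52 with a median of -0.77. The smallest was for *Sst*, from 0.04 to 0.76. Library composition moved with the dissector as well: the intergenic percentage was 14.5 ± 1.15 (SD, n = 80) for dissector One and 12.8 ± 1.63 (SD, n = 165) for the second dissector, and the ribosomal percentage was 0.832 ± 0.242 and 1.28 ± 0.438.

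When the ribosomal and intergenic percentages were in the model, much smaller differences were left. *Cck* was higher for the second dissector by 0.12 ± 0.039 log2 (SE, adjusted p = 0.0375, limma-voom) and *Gad2* was lower by 0.077 ± 0.030 log2 (adjusted p = 0.0804). These were 2 of 7 members, 1 in each direction, against 14.9% of all genes (5.24% higher and 9.71% lower). *Gad1* (-0.059 ± 0.025, adjusted p = 0.115) and *Pvalb* (0.075 ± 0.035, adjusted p = 0.160) did not pass. *Slc32a1*, *Sst* and *Vip* had differences of -0.047, -0.025 and 0.033, with adjusted p from 0.321 to 0.791. When both percentages were left out, an alternative chosen after seeing the data, all 7 members passed, as did 82.4% of all genes, with differences from -0.65 (*Gad2*) to 0.95 (*Vip*). Within days that both dissectors shared, with day in the model (limma-voom, n = 204 rats), *Gad1* passed (-0.098, adjusted p = 0.0301), while *Cck* (0.11, adjusted p = 0.136) and *Gad2* (-0.057, adjusted p = 0.406) did not. In that fit 8.06% of all genes passed. Of the other interneuron markers, 3 of 8 were lower for the second dissector, namely *Nr2f1* (-0.082 ± 0.019, adjusted p = 0.00129), *Kcnc1* (-0.11 ± 0.032, adjusted p = 0.0185) and *Grin2d* (-0.14 ± 0.051, adjusted p = 0.0577). Of the 5 matched markers of other cells, *Slc17a7* (-0.075) and *Slc17a6* (-0.27), which marks subcortical excitatory neurons, were lower too, and the summed level of the 5 had a median of 3494 CPM (2227 to 4202) for dissector One and 2456 CPM (1523 to 4139) for the second dissector; none of the 5 was at 0, and their part in the member differences was not tested.

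**Figure D3:**
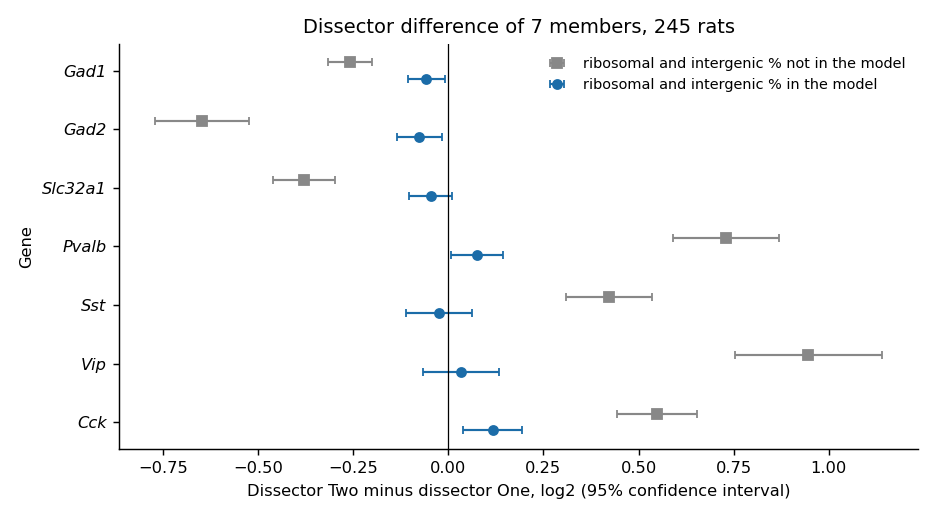
Difference between dissectors (the second dissector minus dissector One, log2, x axis) for each of 7 members over 245 rats, with bars for the 95% confidence interval; gray squares are from the model without the ribosomal and intergenic percentages and blue circles from the model with them. The gray differences run from -0.65 for *Gad2* to 0.95 for *Vip*, whereas the blue ones lie between -0.077 (*Gad2*) and 0.12 (*Cck*).

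Families differed most in *Sst* once the covariates were removed. With covariates removed, the *Sst* level was highest in family 1, at 7.34 ± 0.196 log2 CPM (SD, n = 17 rats), and lowest in family 12, at 6.80 ± 0.205 (SD, n = 13), a 1.45-fold range between family means. In family 1 the adjusted values ran from 6.97 through a median of 7.34 to 7.67 and in family 12 from 6.38 through 6.78 to 7.12. The families overlapped, but 14 of the 17 rats of family 1 lay above every rat of family 12. Families 11, 5, 4 and 3 followed family 1 in that order (means from 7.22 to 7.18), and neighbors in the order differed by less than their SD. Families 9 and 7 stood next to family 12 at the low end (6.90 and 6.87).

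*Sst* (adjusted p = 3.9e-13) and *Pvalb* (adjusted p = 3.0e-05) carried the smallest p-values for family, and *Vip* (adjusted p = 0.0249) and *Gad1* (adjusted p = 0.0336) also passed FDR 0.10 in limma-voom's F-test. *Gad2* (adjusted p = 0.224), *Slc32a1* (adjusted p = 0.523) and *Cck* (adjusted p = 0.563) did not. The 4 of 7 members compare with 56.3% of all genes that passed for family, so the count of members is near the background. Family accounted for 33.5% of the variance that covariates had left in *Sst* and 18.1% in *Pvalb*, against 4.0% (*Cck*) to 10.3% (*Vip*) in the other 5. *Pvalb* was highest in family 3 (6.28 ± 0.135, SD, n = 22) and lowest in family 8 (6.00 ± 0.138, SD, n = 20), a 1.21-fold range. Families 1, 3, 4, 5 and 11 held the 5 highest means for both markers, and family 12, the lowest for *Sst*, was rank 9 of 12 for *Pvalb*. *Vip* was highest in family 1 and lowest in family 12, as was *Sst*, over a 1.25-fold range, while *Gad1* was highest in family 1 and lowest in family 7 over a 1.10-fold range. With the 3 rats that stood apart left out of the means, family 1 was rank 4 for *Gad1* and family 3 was the highest (7.94, a 1.09-fold range over family 7), whereas the highest and lowest families of *Sst* (1.43-fold), *Pvalb* (1.21-fold) and *Vip* (1.26-fold) were as before. In the model without these rats, *Gad2* (adjusted p = 0.0173) and *Slc32a1* (adjusted p = 0.0880) passed for family too, making 6 of 7 members with *Gad1* (adjusted p = 0.00836), against 56.3% of all genes. The rats were picked by their *Slc32a1* level, so these calls are not an independent check.

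**Figure D4:**
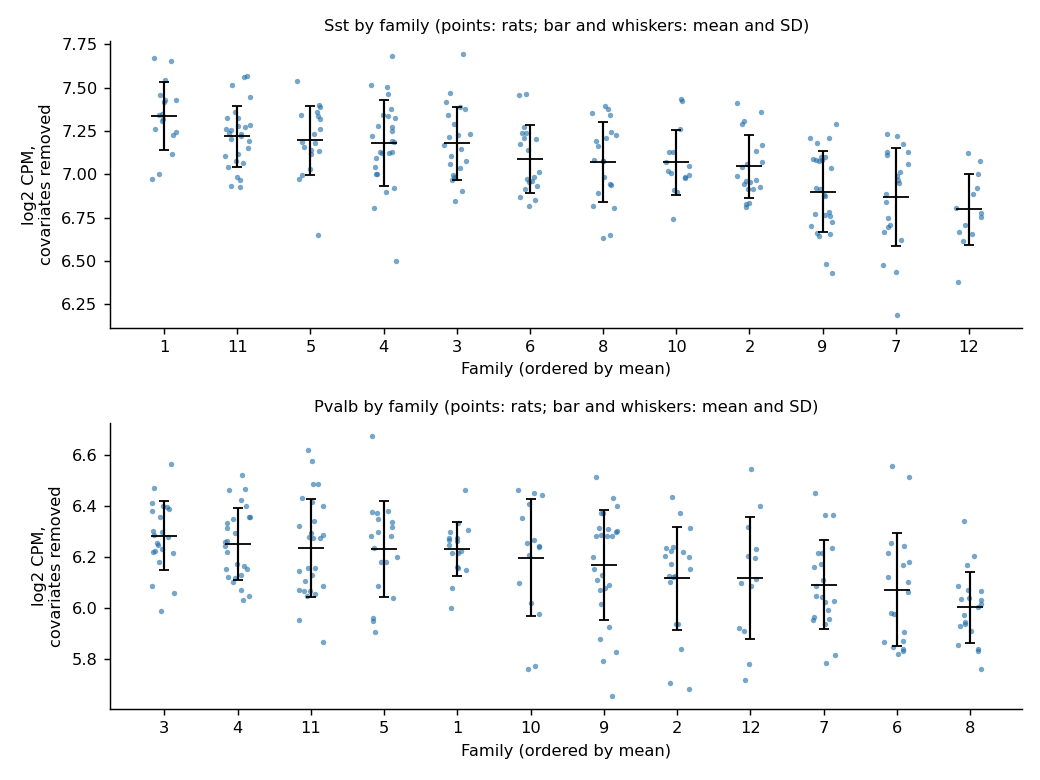
Log2 CPM with covariates removed (y axis) of *Sst* (top) and *Pvalb* (bottom) in the 12 families (x axis, ordered by mean); points are rats, and the bar and whiskers are the mean and SD. *Sst* falls from 7.34 in family 1 to 6.80 in family 12, and *Pvalb* from 6.28 in family 3 to 6.00 in family 8.

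The family result depended on the removal of library composition. Families differed in mean intergenic percentage, from 11.7% in family 12 to 14.1% in family 2, and 12 of the 13 rats of family 12 were cut by the second dissector. With no covariate removed, family 12 was rank 4 of 12 for *Sst* (mean 7.23 log2 CPM), although family 1 was still rank 1 (7.34). Family then accounted for 13.1% of the variance in *Sst*, below *Pvalb* (16.2%), *Vip* (14.2%) and *Cck* (13.6%). With the 2 percentages left out of the model, again an alternative chosen after seeing the data, only *Gad1* of the 7 members passed for family (adjusted p = 0.0261), against 18.2% of all genes, and *Sst* (adjusted p = 0.103) and *Pvalb* (adjusted p = 0.210) did not. With dissection day in the model, *Sst* (adjusted p = 4.2e-11), *Pvalb* (adjusted p = 0.000688), *Vip* (adjusted p = 0.0216) and *Gad1* (adjusted p = 0.0393) all passed, against 55.0% of all genes. Of the other interneuron markers, 7 of 8 passed for family, with the smallest p-values for *Crh* (adjusted p = 5.2e-07), *Crhbp*, which encodes a binding protein of that peptide (adjusted p = 5.1e-05), *Tac3*, the neurokinin B precursor (adjusted p = 0.000125), and *Sox6*, a factor of *Sst* and *Pvalb* cells (adjusted p = 0.000320). Of the markers of other cells, *Aqp4* and *Gfap* of astrocytes and *Slc17a7* passed (3 of 5), and their part in the member differences was not tested.

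Females and males were compared next. *Cck* had a median of 269 CPM in females (range 128 to 600.2) and 256 CPM in males (range 116 to 502), and *Vip* had medians of 33.2 (9.79 to 126) and 28.2 CPM (7.73 to 126). The sexes overlapped over nearly the whole range, with 2 females above every male for *Cck* and 1 for *Vip*. In the model *Cck* was higher in females by 0.10 ± 0.030 log2 (SE, adjusted p = 0.0211, limma-voom) and *Vip* by 0.11 ± 0.038 (adjusted p = 0.0725). These 2 of 7 members, both higher in females, compare with 9.08% of all genes (4.04% higher and 5.04% lower). *Pvalb* differed by 0.042 ± 0.027 (adjusted p = 0.405) and *Sst* by 0.020 ± 0.034, and *Gad1*, *Gad2* and *Slc32a1* differed by less than *Sst*, with adjusted p from 0.820 (*Slc32a1*) to 0.926 (*Gad1*). Within batches 1, 2 and 3 the *Cck* difference was 0.12, 0.049 and 0.16 and the *Vip* difference 0.022, 0.16 and 0.084, all in the same direction and none of these 6 past FDR 0.10. *Pvalb* passed in batch 2 (0.13, adjusted p = 0.0716), where 7.27% of all genes passed, and had the opposite sign in batch 3 (-0.12, adjusted p = 0.795). With dissection day added, *Cck* passed (0.099, adjusted p = 0.0395) and *Vip* did not (0.096, adjusted p = 0.131), against 8.08% of all genes. With the ribosomal and intergenic percentages left out, *Cck* (0.096, adjusted p = 0.496) and *Vip* (0.088, adjusted p = 0.880) did not pass, against 2.18% of all genes.

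*Tac3* was the other interneuron marker that differed by sex, by 0.26 ± 0.033 log2 (adjusted p = 6.1e-11), also higher in females. All 5 matched markers of other cells moved with sex: *Slc17a7* (-0.084), *Gfap* (-0.15) and *Aqp4* (-0.12) were lower in females, and *Tcf7l2* (0.42), listed as a marker of thalamus, and 1 more were higher. The summed level of the 5 overlapped, with medians of 2815 CPM (1523 to 3890) in females and 2954 CPM (1527 to 4202) in males, and the part of these markers in the *Cck* and *Vip* differences was not tested. *Tcf7l2* is a small part of that sum. Its medians were 10.5 CPM (2.57 to 71.6) in females and 7.32 CPM (2.39 to 26.3) in males. Sex cannot be told apart from age or date of death, housing room or test order in these rats. The ages of males and females did not overlap. The study states that males were tested and killed before females, and that the sexes were housed in separate rooms.

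Rats that had been through PavCA training (n = 208) were set against those that had not (n = 37). *Slc32a1* had a median of 77.5 CPM (39.2 to 117) in trained and 69.4 CPM (42.4 to 99.1) in untrained rats, and the groups overlapped. The model put the trained rats above the untrained ones by 0.11 ± 0.039 log2 (SE, limma-voom, adjusted p = 0.0830), 1 of 7 members against 9.19% of all genes (5.35% higher and 3.85% lower). Without the 3 rats that stood apart, all of them trained, the *Slc32a1* difference was 0.050 (adjusted p = 0.521) and no member passed, against 5.25% of all genes. These rats were picked for high *Slc32a1*, so leaving them out was bound to lower this difference. *Pvalb* (0.11 ± 0.045, adjusted p = 0.114) and *Gad1* (0.076 ± 0.033, adjusted p = 0.168) had the next smallest p-values. In the unadjusted levels *Slc32a1* was also higher in trained rats (by 0.096 log2), whereas *Pvalb* was lower (by 0.32). Untrained rats had a lower intergenic percentage (12.8 ± 1.24, SD, n = 37) than trained ones (13.5 ± 1.75, SD, n = 208). Their age at death was also lower (121.6 ± 5.89 days against 124.9 ± 4.08 days, SD). Dissector One cut 19 of the 37 untrained and 61 of the 208 trained rats. Dates of death differed between the groups too, and the part of age and date in the member differences was not tested. Of the list genes, *Gabra5* was lower in trained rats (-0.12 ± 0.037, adjusted p = 0.0264) and *Grin2d* higher (0.21 ± 0.077, adjusted p = 0.0831). Among markers of other cells, the model put *Slc17a7* lower in trained rats (-0.16) and *Slc17a6* (0.43) and *Tcf7l2* (0.62) higher. Their unadjusted medians ran the other way. In trained and untrained rats they were 1640 and 1404 CPM for *Slc17a7*, 23.6 and 25.0 for *Slc17a6*, and 8.06 and 10.7 for *Tcf7l2*. The unadjusted summed level of the 5 matched markers had medians of 3022 CPM (1523 to 4202) in trained and 2679 CPM (1625 to 3635) in untrained rats. The part of these markers in the *Slc32a1* difference was not tested.

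The behavioral comparisons asked whether any member tracked the temperament that the lines were bred for. None of the 7 passed FDR 0.10 for any of the 5 behaviors in limma-voom, in which 2 genes of 19448 passed for LocoScore (0.0103%), 1 for the PavCA Index (0.00514%) and 0 for each EPM measure (0%). None of the 7 passed in edgeR's quasi-likelihood test either, in which 1 gene passed for LocoScore, 7 for EPM distance, 1 for time immobile, 3 for the open arms and 1 for the PavCA Index. Of the 35 limma-voom slopes, 1 had an unadjusted p under 0.05, that of *Sst* on EPM distance traveled, at 0.0083 ± 0.0039 log2 per 100 cm (SE, n = 244 rats, unadjusted limma p = 0.0374, adjusted p = 1.0). The next smallest were for *Vip* on LocoScore (0.0097 ± 0.0063 log2 per 100 beam breaks, unadjusted limma p = 0.123) and *Vip* on EPM time immobile (-0.012 ± 0.0083 log2 per 10 s, unadjusted limma p = 0.135). Of all 19448 genes, 728 had an unadjusted limma p under 0.05 for EPM distance.

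The intervals give the size of slope that these data allow. Over 1 SD of LocoScore (301 beam breaks), the 95% confidence intervals of the 7 members lay between -0.038 and 0.066 log2. Over 1 SD of each EPM measure they lay between -0.027 and 0.072 for distance, between -0.075 and 0.049 for time immobile and between -0.036 and 0.054 for percent time in the open arms. Over 1 SD of the PavCA Index they lay between -0.050 and 0.037. A change of over 1.05-fold per SD lay outside all of these intervals save those of *Sst* on distance and *Vip* on time immobile, which reached 1.051-fold and 1.053-fold. Unadjusted levels overlapped between 38 goal-trackers, 87 intermediate rats and 80 sign-trackers and were not tested by class. In that order the medians climbed for *Vip* (24.8, 28.3 and 31.6 CPM), *Cck* (242, 249 and 266 CPM) and *Pvalb* (64.1, 64.7 and 69.9 CPM) and declined for *Gad2* (209, 202 and 185 CPM). They had no such order for *Sst* (124, 135 and 130.2 CPM), *Slc32a1* (79.5, 75.6 and 79.1 CPM) and *Gad1* (242, 244 and 242 CPM). With the covariates in the model, the climb was not seen. The PavCA Index slopes of *Vip*, *Cck* and *Pvalb* were -0.012, -0.00022 and -0.00072 log2 per index unit, and that of *Gad2* was -0.025. The unadjusted limma p of these slopes ran from 0.299 (*Gad2*) to 0.995 (*Cck*).

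**Figure D5:**
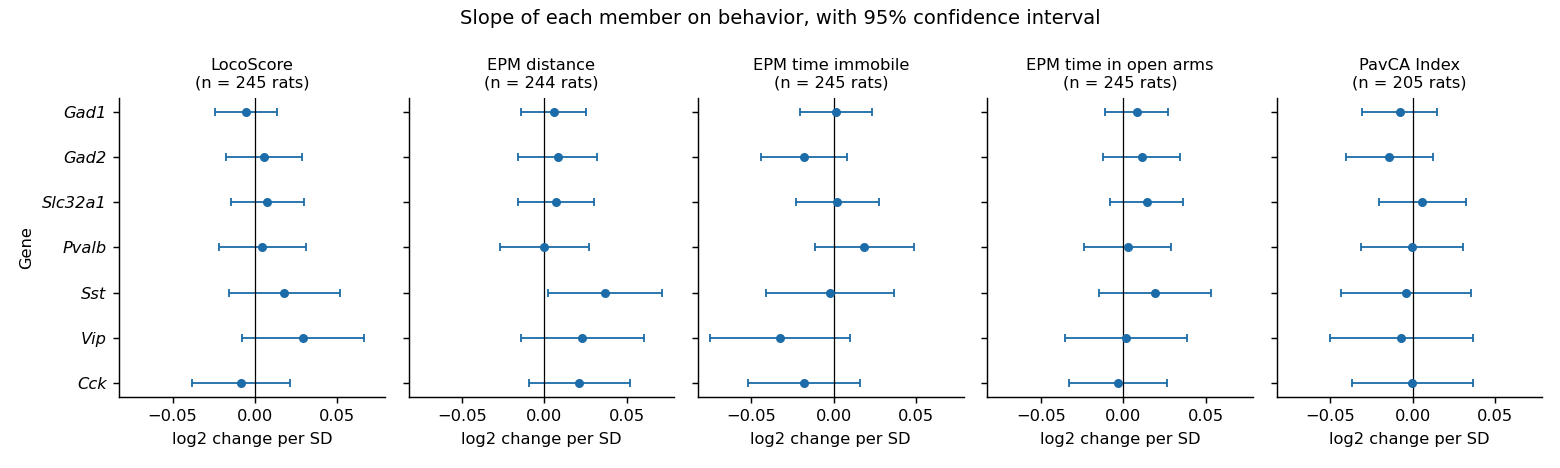
Slope of each of 7 members (y axis) on 5 behaviors, as log2 change per SD of the behavior (x axis), with bars for the 95% confidence interval; n is 245 rats, or 244 for EPM distance and 205 for the PavCA Index. All intervals lie between -0.075 and 0.072, and that of *Sst* on EPM distance is the only one that does not reach 0.

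The sexes were also compared in their slopes. No interaction of sex and behavior passed FDR 0.10 for any member among 35 tests in limma-voom or limma-trend. In limma-voom 4 had an unadjusted p under 0.05, 3 for LocoScore and 1 for EPM time immobile. At that threshold 3589 of all 19448 genes lay for LocoScore and 2946 for EPM time immobile. At FDR 0.10 the background was 0.329% of genes for LocoScore (0.195% with the higher slope in females and 0.134% with the lower), 0.00514% for EPM time immobile and 0% for the other 3 behaviors. The smallest p-value was for *Gad2* and LocoScore, where the female slope exceeded the male slope by 0.024 ± 0.0077 log2 per 100 beam breaks (adjusted p = 0.131). The *Gad2* slope was -0.013 in males (n = 122) and 0.010 in females (n = 123), neither of which passed on its own (adjusted p = 0.700 and 0.585). For *Cck* the interaction had the opposite sign (-0.026 ± 0.0100, adjusted p = 0.169), for *Slc32a1* it was 0.017 ± 0.0074 (adjusted p = 0.215), and for *Sst* with EPM time immobile it was 0.037 ± 0.016 log2 per 10 s (adjusted p = 0.267).

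Left and right hippocampus gave no member past FDR 0.10 in limma-voom, in which 0% of all genes passed. By limma-voom 1 of the 7, *Cck*, had an unadjusted p under 0.05 (right minus left 0.057 ± 0.029 log2, adjusted p = 0.904), as had 1048 of all 19448 genes. None of the 7 passed in edgeR's quasi-likelihood test. *Cck* had a median of 268 CPM (116 to 546) on the right and 255 CPM (128 to 600.2) on the left, and the sides overlapped. Of the genes on the fixed lists, *Cckbr*, the brain receptor for cholecystokinin and the 1 neuropeptide receptor of 12 that could be matched, passed only for the intergenic percentage (0.12 ± 0.018 log2 per point, adjusted p = 6.4e-11) and in none of the comparisons of sex, dissector, training, side, family or behavior.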

How the data were processed

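Hippocampal polyA libraries of 250 F2 rats were sequenced and, per the labels and the study's methods, the authors aligned the reads with STAR (2.7.3a) and deposited raw counts per Ensembl gene from Subread (2.0.0), which are the only values used here. The rat assembly was Rnor6 with Ensembl annotation. The 5 libraries with a failed quality label (low RNA integrity, sex mismatch or very high library size) were left out. Libraries held 17.92 to 31.49 M counts, and members with few reads are the least precise.

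Counts were scaled by TMM (edgeR 4.0.16) and the 19448 genes that 25% of rats or more showed with 1 read or more were fitted by limma-voom (limma 3.58.1, R 4.3.3), following the study's model: behavior, sex, dissector, sequencing batch, PavCA experience and the shares of ribosomal and intergenic reads, with LocoScore as the behavior where another factor was tested. The batch was read from sample titles. Adjusted p-values are Benjamini-Hochberg over all genes, called at FDR 0.10. Values per rat are log2 CPM with a prior count of 0.5. One rat over 5000 cm of EPM distance was left out of that slope. Correlations used two-sided permutation tests with 100000 resamples over 21 pairs of the 7 tested members, adjusted over the pairs. The labels hold dates in place of the intergenic percentage, which was therefore taken as what the mRNA, intronic and ribosomal shares leave. Symbols of list genes came from identifier pairs in the study's tables (1888), which matched 2 of 21 GABA genes, 8 of 39 interneuron markers, 1 of 12 neuropeptide receptors and 5 of 13 markers of other cells. No Ensembl identifier of the count table was matched in the RefSeq gene table. Members, lists and tests were chosen with earlier results of these data known. Named genes were all members, the 2 nearest genes of each, and list genes past FDR 0.10, at most 4 per list and comparison. One list gene is not reported here. Separate rats are the replicates, and replicate numbers only name them. Alternatives were DESeq2 size factors, no low-count filter, edgeR's quasi-likelihood test, limma-trend, added family or day, and fits within sex, dissector or batch. Scripts were tested on simulated counts.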

Additional observations from a re-analysis of the deposited data

How the results depend on the processing

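No paired analysis was possible because replicate numbers were given in accession order and only name rats. Family and dissection day, which groups share, were added to the model instead. Counts are of the 7 tested members past FDR 0.10 by limma-voom unless another tool is named, and causes of the changes were not tested. For sex, 2 became 1 with dissection day added (*Cck*), 0, 1 and 0 within batches 1, 2 and 3, and 0 without the ribosomal and intergenic percentages. The share of all genes that passed was 8.08%, 2.83%, 7.27%, 0.180% and 2.18% in that order, against 9.08% in the main fit. For dissector, 2 became 1 by edgeR, 1 on the days with both dissectors, 0 within males, 0 within females, 4, 0 and 1 within batches 1, 2 and 3, and 7 without the percentages. In that order 14.9%, 8.06%, 11.1%, 0.0411%, 19.6%, 0.113%, 3.04% and 82.4% of all genes passed, against 14.9% in the main fit. Hardly any gene passed within females or batch 2, so the counts of 0 there say little about the members. For PavCA experience, 1 became 3 with DESeq2 size factors, 0 with no low-count filter, 2 with family added, 2 with day added, 0 without the percentages and 0 without the 3 rats that stood apart. The matching shares of all genes were 10.1%, 5.47%, 11.9%, 4.37%, 0.622% and 5.25%, against 9.19% in the main fit. For family, 4 became 1 without the percentages, where 18.2% of all genes passed against 56.3% in the main fit. Of 21 pairs, 18 became 10 within dissector One, 10 within batch 1 and 10 within batch 3. The omission of the 3 rats and the omission of the percentages were chosen after seeing the data. Signs turned for *Pvalb* by dissector within batch 2 (-0.066), *Pvalb* by PavCA experience without the percentages (-0.030), and, with no covariate removed, the correlations of *Gad1* with *Pvalb* (-0.67), *Sst* (-0.55) and *Vip* (-0.68) and of *Slc32a1* with *Pvalb* (-0.73). Signs also turned for *Gad2* with *Vip* in batch 3 (0.039), *Slc32a1* with *Vip* in batch 2 (0.011), *Pvalb* with *Cck* in batch 3 (-0.15), and *Slc32a1* with *Cck* in males (0.080), dissector One (0.043), batch 1 (0.11) and batch 2 (0.061). The other 86 counts of members or pairs stayed within 1.5 times. No member passed for a behavior, an interaction or hippocampal side under any alternative run. *Npy*, with 2 reads, has no value to compare.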
